A study of Mus musculus with 8 samples.

Results

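The genes described here code for the proteins of the cytosolic ribosome. They were followed in the gastrocnemius (GAS) of male mice of the C57/Bl6j strain, given in the labels as 14 weeks old, 3 weeks after an adeno-associated virus (AAV) was injected into the muscle. The labels do not say whether that age is at injection or at sampling. AAV sh-RNA MYTHO carried a short hairpin RNA against *D230025D16Rik*, the transcript that codes for MYTHO, and AAV sh-RNA scrmb carried a scrambled hairpin. Both legs of an animal therefore received a virus and a hairpin: MYTHO in the right leg and scrmb in the contralateral leg, giving 4 arrays per group from 4 animals, called A to D. The hairpin was driven by a U6 promoter, which is not restricted to muscle fibres, and no untreated muscle was part of the comparison. Members were taken by symbol: an array row was included where a gene symbol started with Rpl, Rps, Rplp or Rpsp and continued with a number and at most a closing a, l or x. Of the 22664 gene symbols on the array, 81 met this rule through 85 rows, 50 of the large and 31 of the small subunit, and a symbol with several rows was read from the row with the highest mean signal. All 81 were in the RefSeq table, on 19 chromosomes. The rows of 17 members name several genes and cannot separate them: 11 include a small nucleolar RNA or microRNA that lies within the host gene, and 6 include another gene or a pseudogene, namely *Rpl14*, *Rpl24*, *Rpl26*, *Rpl30*, *Rpl34* and *Rps27*.

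A cytosolic ribosome has a small subunit, which binds the mRNA and reads its codons, and a large subunit, which joins amino acids. Each subunit is built on ribosomal RNA in the nucleolus, and its proteins are needed in matched amounts. Their mRNAs belong to the terminal oligopyrimidine (TOP) class, which starts with a C followed by an unbroken stretch of C and T letters, and whose translation depends on the growth kinase mTORC1 and the cap-binding protein LARP1. In skeletal muscle, ribosome content is tied to the capacity for protein synthesis and growth.

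The windows around the annotated starts were examined as a feature that the symbol rule did not use. RefSeq (GRCm38.p6, the assembly that mm10 names) gave a promoter window for 60 of the 81 members. The run sought was a C within 5 bases of the start, followed on the sense strand by at least 4 C or T letters. A gene counted if any of its windows held the run, so genes with more annotated starts had more chances to match. It was present in 29 of the 60 (48.3%), against 5718 of 27025 genes with a window (21.2%) and 3767 of 17492 protein-coding genes (21.5%). Only the sense strand was searched, since the motif is read in the mRNA. The sequences below are 15 bases on either side of an annotated start, written 5′ to 3′ in the direction of transcription. Matched runs are in capitals. For *Rpl38* and *Rps2* that start lies inside the gene, as no window was given at the gene's outer start. The sequences were chosen to show windows with and without the run among the genes that the results turn on. The first 6 windows carry it, and those shown for *Rplp0*, *Rps16* and *Rpl3l* do not.
Rps6, chr4:86857353-86857382, minus strand: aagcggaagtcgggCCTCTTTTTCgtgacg
Rpl38, chr11:114668565-114668594, plus strand: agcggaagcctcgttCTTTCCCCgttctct
Rps26, chr10:128626492-128626521, minus strand: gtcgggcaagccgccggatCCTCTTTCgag
Rps27, chr3:90213634-90213663, minus strand: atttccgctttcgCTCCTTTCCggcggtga
Rplp2, chr7:141447636-141447665, plus strand: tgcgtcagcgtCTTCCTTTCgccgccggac
Rps2, chr17:24720048-24720077, plus strand: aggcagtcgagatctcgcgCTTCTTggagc
Rplp0, chr5:115559452-115559481, plus strand: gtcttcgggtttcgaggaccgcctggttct
Rps16, chr7:28350674-28350703, plus strand: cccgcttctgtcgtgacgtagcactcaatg
Rpl3l, chr17:24727811-24727840, plus strand: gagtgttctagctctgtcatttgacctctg
The run is a match of letters next to an annotated start, and its absence says only that these letters were not found there. The log2 difference between MYTHO and scrmb legs had the same median, 0.19, in the 29 members with the run and in the 31 without it. Across the 60 windows, the GC content had a Spearman correlation of -0.071 with the log2 difference.

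The targeted transcript checks the labels. *D230025D16Rik* had log2 signals of 11.35, 11.31, 10.78 and 11.05 in the scrmb legs of animals A to D, and of 8.16, 8.20, 8.80 and 8.08 in the MYTHO legs. It fell by 2.81 on the log2 scale (SE 0.21, limma adjusted p = 0.00044), which left 14.2% of the scrmb signal, and all MYTHO arrays were below all scrmb arrays. An exact permutation test over the 70 possible relabellings of the 8 arrays gave a two-sided p of 0.0286, its minimum. These relabellings do not keep the legs paired, and an exact permutation within 4 animals cannot go below p = 0.125. The limma adjusted p was 0.0156 with the animal as a block. Array medians over all 22206 probe sets lay between 6.39 and 6.47. Without the block, the limma p-values are set against the spread among the 4 arrays of each group. With it, they are set against the spread between animals of the difference between legs. All arrays came from 4 animals.

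Most ribosomal protein mRNAs had a slightly higher signal in the MYTHO legs, and none passed the test across the whole array. The log2 difference was above 0 for 69 of the 81 members, below 0 for 11 and 0 for *Rpl23*. Its median over the members was 0.195 (quartiles 0.0575 and 0.337, range -0.40 to 0.94), beside -0.005 over all probe sets and 0.0125 over the 25% of probe sets with the highest mean signal, which held 76 of the members. The other 5 members, with dimmer probe sets, had a median difference of 0.10. No member had a limma adjusted p under 0.05, where 0.027% of all probe sets (6 of 22206) did. At an unadjusted limma p under 0.05, 11 of the 81 members (13.6%) were higher in the MYTHO legs, against a background of 4.81% of all probe sets and 6.75% of the upper 25% by signal. None of the members was lower at that threshold, against 7.58% of all probe sets and 8.32% of the upper 25%. In 8 members (9.88%) every MYTHO array was above every scrmb array, where 2.59% of all probe sets showed this, and in no member was every MYTHO array below every scrmb array, where 3.87% did. They included *Rpl29*, *Rplp0*, *Rps26*, *Rps16*, *Rps2*, *Rps12* and *Rps27l*. These counts depended on single arrays: without the scrmb array of animal D, 18 members were higher at an unadjusted p under 0.05 and 21 had no overlap, where 5.65% and 5.64% of all probe sets did. Without the MYTHO array of animal C these counts were 17 and 21, beside 4.72% and 4.62% of all probe sets. With limma's trend and robust options, 15 members were higher at an unadjusted p under 0.05, where 4.96% of all probe sets were, and *Rpl9* was lower. Under these options 2 members passed the adjusted threshold, among them *Rpl29* (adjusted p = 0.0231), a count given without the share of all probe sets. In whole muscle, a change in the share of a cell type and a change in RNA per cell cannot be told apart.

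**Figure D1:**
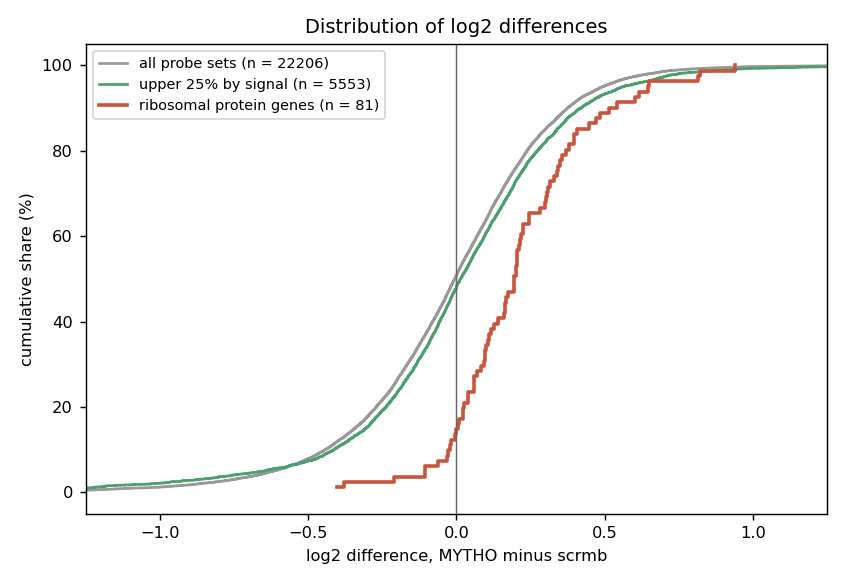
Cumulative share of genes (y axis, percent) by log2 difference, MYTHO minus scrmb (x axis), for the 81 ribosomal protein genes, the 5553 probe sets in the upper 25% by signal and all 22206 probe sets. The curve of the ribosomal protein genes lies to the right of the others over most of its range, with medians of 0.195, 0.0125 and -0.005.

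**Figure D2:**
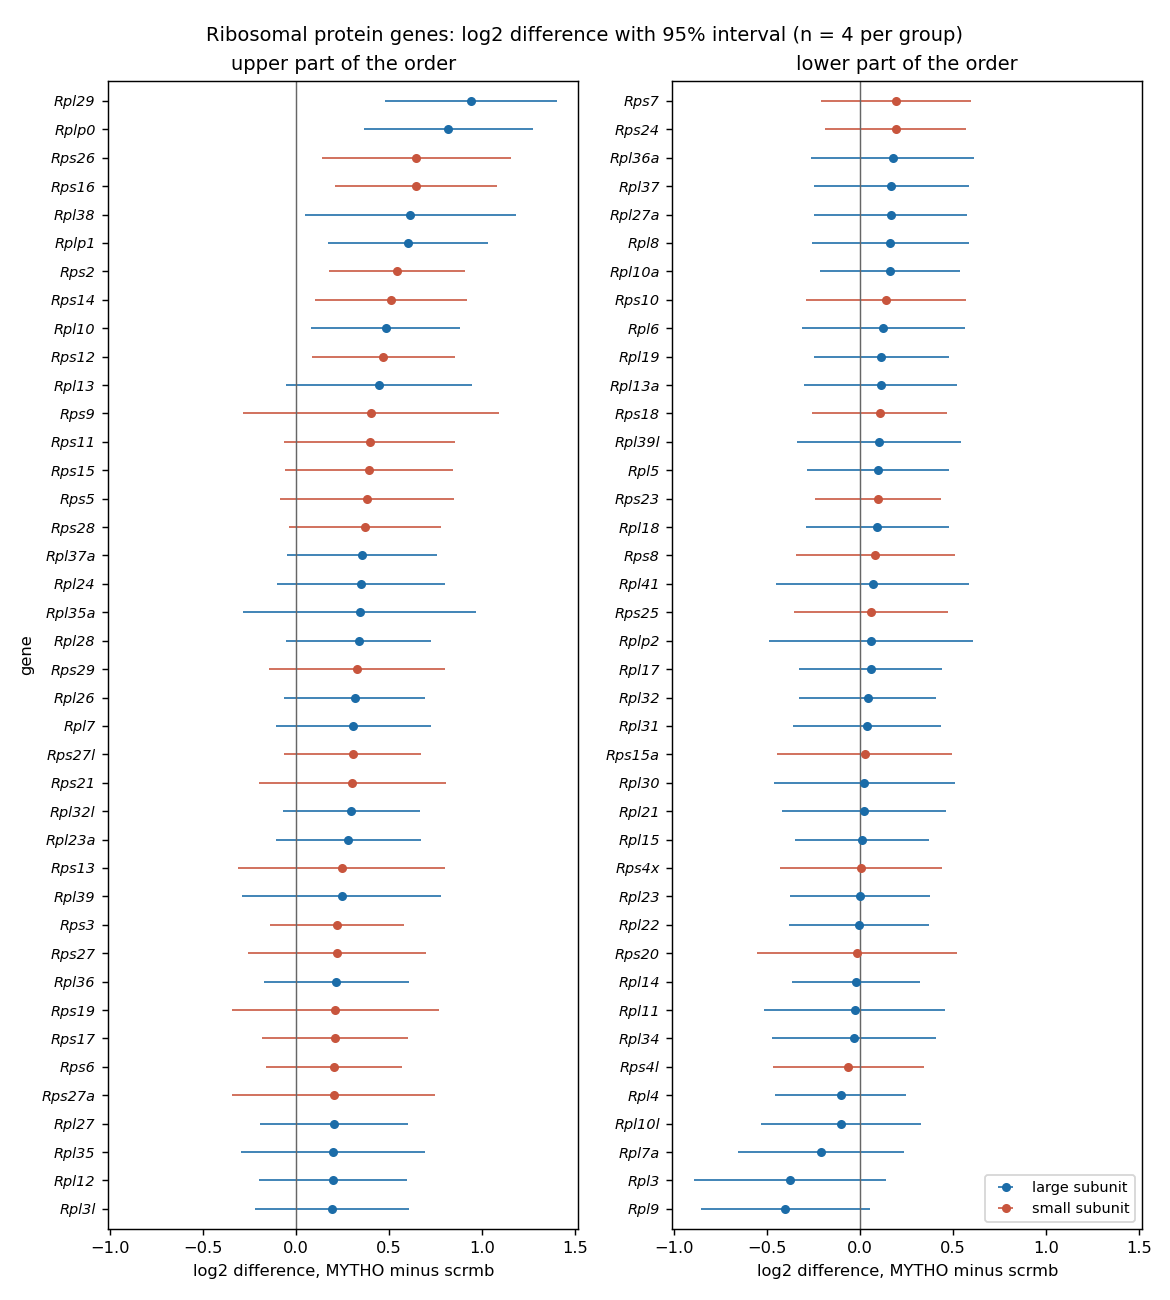
Log2 difference, MYTHO minus scrmb, of 80 of the 81 ribosomal protein genes (points, coloured by subunit) with its 95% interval from limma (bars), in order of size over both columns. The values run from -0.40 for *Rpl9* to 0.94 for *Rpl29*, most of them above 0 and 11 below 0.

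The members' average signal was higher in the MYTHO leg of every animal, by unequal amounts. The mean log2 signal over the 81 members was 12.88, 12.89, 12.77 and 13.03 in the scrmb legs of animals A to D (12.89 ± 0.106, SD, n = 4) and 13.22, 13.12, 12.84 and 13.23 in the MYTHO legs (13.10 ± 0.182, SD, n = 4). The groups overlapped, as the MYTHO array of animal C was below the scrmb arrays of A, B and D, and the scrmb array of animal D was above the MYTHO array of C. Within animals, the median over the members of the difference between legs was 0.37 in A, 0.20 in B, 0.04 in C and 0.23 in D. Animal C stood apart from the rest in its balance as well, with 43 members higher and 37 lower in its MYTHO leg, where A had 71 and 9, B had 62 and 17 and D had 64 and 17. Between the legs of animal C the log2 difference of the hairpin target was -1.98, and in the other animals it lay between -3.19 and -2.97. The part of that smaller reduction in the members' difference was not tested.

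The direction of the difference was also counted animal by animal. The MYTHO leg was higher in all 4 animals for 29 members (35.8%), beside 8.94% of all probe sets, and in 3 of 4 for a further 27. *Rpl3* was the single member lower in all 4 animals (1.23% of the members, beside 10.8% of all probe sets). The differences of the members also varied in size within an animal, with an SD over the 81 members of 0.322 in A, 0.347 in B, 0.439 in C and 0.260 in D. Across the 81 members, the within-animal differences had a Pearson correlation of 0.603 between animals B and C and of 0.122 to 0.367 for the other 5 combinations. These are descriptions across genes that share arrays, and genes are not independent replicates. Across the members, the log2 difference had a Spearman correlation of -0.0572 with the mean signal.

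**Figure D3:**
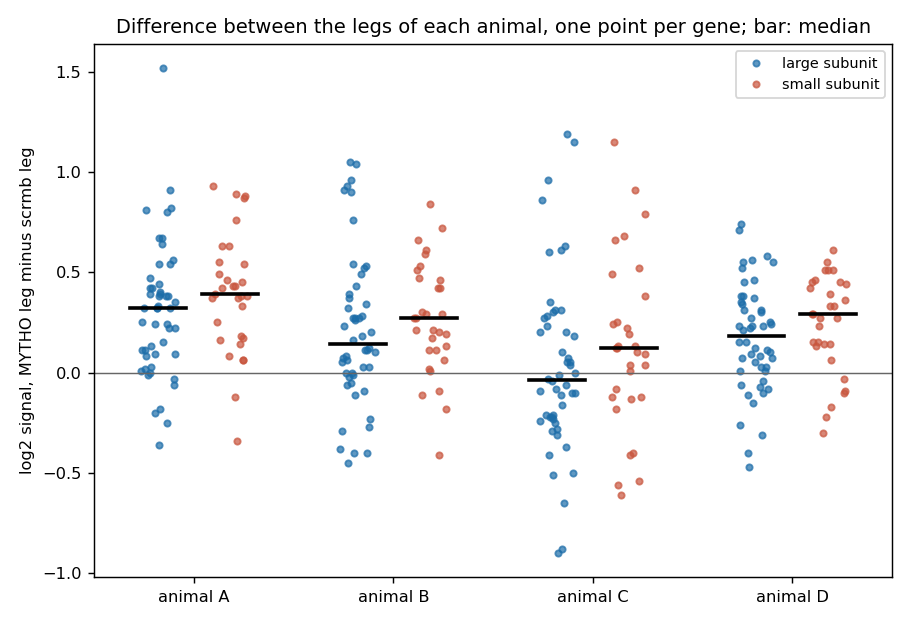
Difference between the legs of each animal (log2, MYTHO minus scrmb) with 1 point per ribosomal protein gene, coloured by subunit, and a black bar at the median of each subunit. The bars of animal C are the lowest, at -0.04 for the large and 0.12 for the small subunit.

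The subunits were also described separately, without a test of the difference between them. Of the 31 small-subunit genes, 29 were above 0 and 2 below, with a median of 0.22 and within-animal medians of 0.39, 0.27, 0.12 and 0.29 in A to D. Unadjusted p-values under 0.05 were reached by 5 of them (16.1%), all higher, where 4.81% of all probe sets were, and 5 had no overlap between groups (16.1%, beside 2.59% of all probe sets). Of the 50 large-subunit genes, 40 were above 0, 9 below and 1 at 0, with a median of 0.16 and within-animal medians of 0.32, 0.14, -0.04 and 0.18. In this subunit 6 (12%) were higher at an unadjusted p under 0.05 and 3 (6%) had no overlap, beside the same 4.81% and 2.59%. Over all members, leaving out the MYTHO array of animal D lowered the median to 0.11, and the median of the large subunit was 0.09 without that array and 0.25 without the MYTHO array of animal C.

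The acidic stalk of the large subunit, which recruits the elongation factors, is made of the products of *Rplp0*, *Rplp1* and *Rplp2*. *Rplp0*, the base of the stalk (chr5:115559467-115563729), had log2 signals of 12.20, 12.14, 11.60 and 12.22 in the scrmb legs of animals A to D, and of 13.01, 13.04, 12.46 and 12.93 in the MYTHO legs. Every MYTHO array was above every scrmb array, and in both groups animal C was the lowest. The log2 difference was 0.82 (SE 0.21, 1.77-fold, limma adjusted p = 0.153). *Rplp1* (chr9:61913283-61914510) had 15.17, 15.20, 14.99 and 15.64 in the scrmb legs and 15.84, 16.11, 15.59 and 15.87 in the MYTHO legs. Each MYTHO leg was above its own scrmb leg, and the scrmb array of D lay just above the MYTHO array of C. Its log2 difference was 0.60 (SE 0.20, limma adjusted p = 0.248). *Rplp2*, the partner of *Rplp1* in the stalk dimers, had 11.90, 11.93, 11.12 and 12.09 in the scrmb legs and 11.92, 12.11, 11.30 and 11.94 in the MYTHO legs. Its groups overlapped over nearly their whole range, and the log2 difference was 0.06 (SE 0.25, 95% interval -0.49 to 0.61). The window shown above for *Rplp2* carries the pyrimidine run, and that for *Rplp0* does not.

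*Rpl29*, which codes for a protein of the large subunit, had the highest log2 difference of the members. Its signals were 15.29, 15.06, 14.60 and 15.42 in the scrmb legs and 16.20, 16.02, 15.75 and 16.16 in the MYTHO legs. The groups did not overlap, and the difference within animals ranged from 0.74 in D to 1.15 in C. The log2 difference was 0.94 (SE 0.21, 1.92-fold, limma adjusted p = 0.122). The gene lies on chromosome 9 (chr9:106428889-106431568), whereas the row with the highest signal carries an identifier of chromosome 1 and has the same values as a row of chromosome 5 that also names *Gm13841*. The *Rpl29* row with an identifier of chromosome 9 had a log2 difference of 0.40 (limma adjusted p = 0.411), so which *Rpl29* sequence these probes read is uncertain. *Rpl29* was the only member whose row had an identifier of another chromosome than the gene. Over all rows that name 1 symbol, identifier and gene chromosome were the same in 99.6% of 20354.

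Among the other large-subunit genes with a low unadjusted p were *Rpl38* and *Rpl10*. *Rpl38* (chr11:114667818-114672333), known for a role in the translation of *Hox* mRNAs in the embryo, had 12.81, 12.44, 12.05 and 13.43 in the scrmb legs and 13.25, 13.37, 13.24 and 13.33 in the MYTHO legs. The MYTHO arrays lay close together, and the scrmb array of animal D was above them all. The log2 difference was 0.61 (SE 0.26, limma adjusted p = 0.364), and it was 0.40 without the scrmb array of animal C. *Rpl10* (chrX:74270816-74273135), whose product joins the large subunit late in its assembly, had a log2 difference of 0.48 (SE 0.18, limma adjusted p = 0.317) and was higher in 4 of 4 animals. Its row also names *Snora70*.

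The small-subunit genes with the highest differences were *Rps26*, *Rps16* and *Rps2*. *Rps26* (chr10:128624529-128626506), whose product lies where the mRNA leaves the small subunit, had 12.12, 12.40, 11.52 and 12.50 in the scrmb legs and 13.01, 12.53, 12.67 and 12.92 in the MYTHO legs. The groups did not overlap, although the scrmb array of D at 12.50 came close to the MYTHO array of B at 12.53, and the log2 difference was 0.65 (SE 0.23, limma adjusted p = 0.290). A dimmer *Rps26* row with an identifier of chromosome 12 had a log2 difference of -0.14. *Rps16* (chr7:28350689-28352698) had 11.21, 11.08, 10.77 and 11.36 in the scrmb legs and 12.08, 11.67, 11.45 and 11.80 in the MYTHO legs. All its MYTHO arrays were above all its scrmb arrays, and the log2 difference was 0.65 (SE 0.20, limma adjusted p = 0.226). *Rps2* (chr17:24718121-24721927), at the entry of the mRNA channel, had 16.71, 16.46, 16.35 and 16.70 in the scrmb legs and 17.04, 17.18, 17.01 and 17.16 in the MYTHO legs. Here too the groups did not overlap, with a log2 difference of 0.54 (SE 0.17, limma adjusted p = 0.226). Its row also names *Snora64*.

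*Rps14* and *Rps12*, which were also counted among the 11, were named after their values were seen. *Rps14* had a log2 difference of 0.51 (SE 0.19, limma adjusted p = 0.295) and *Rps12* of 0.47 (SE 0.18, limma adjusted p = 0.308). Both were higher in 4 of 4 animals. *Rps6*, the S6 kinase substrate, had 15.62, 15.71, 15.54 and 15.81 in the scrmb legs and 16.05, 15.92, 15.66 and 15.87 in the MYTHO legs. Each MYTHO leg was above its own scrmb leg, by 0.06 to 0.43, while the groups overlapped, and the log2 difference was 0.20 (SE 0.17, 95% interval -0.16 to 0.57, limma adjusted p = 0.677). The run of 10 letters at its start was the longest of those printed above.

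**Figure D4:**
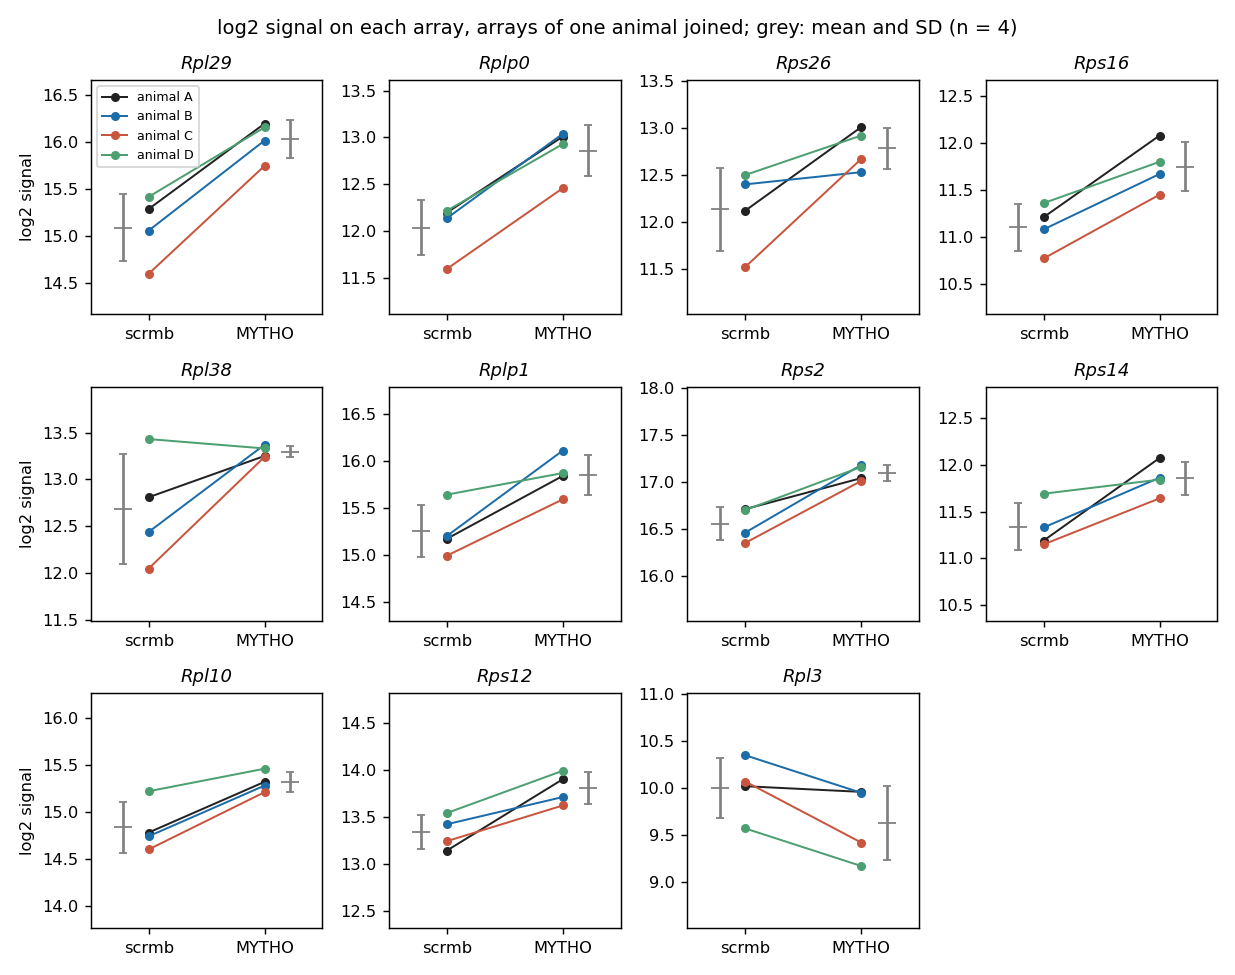
Log2 signal on each of the 8 arrays for 10 ribosomal protein genes with an unadjusted limma p under 0.05 and for *Rpl3*, with the legs of each animal joined by a line and the mean ± SD of each group (n = 4) in grey. *Rpl38* shows the scrmb array of animal D above all 4 MYTHO arrays, and *Rpl3* is lower in the MYTHO leg of all 4 animals.

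Members below 0 were few. *Rpl9* had 13.37, 13.47, 13.52 and 13.51 in the scrmb legs and 13.01, 13.02, 12.64 and 13.59 in the MYTHO legs. The MYTHO leg was lower in animals A, B and C and higher in D, and the log2 difference was -0.40 (SE 0.21, limma adjusted p = 0.464), or -0.26 without the MYTHO array of animal C. *Rpl3* (chr15:80077781-80083406), a protein close to the catalytic centre of the large subunit, had 10.02, 10.35, 10.07 and 9.57 in the scrmb legs and 9.96, 9.95, 9.42 and 9.17 in the MYTHO legs. The groups overlapped although each MYTHO leg was below its own scrmb leg, and the log2 difference was -0.38 (SE 0.24, limma adjusted p = 0.558), or -0.23 without the MYTHO array of animal D. *Rpl7a* followed at -0.21, a value that was -0.03 without the MYTHO array of animal C, and the other 8 lay between -0.105 and -0.005. *Rpl9* and *Rpl7a* were named after their values were seen.

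For 4 members the balance with a paralog was compared as the change in the difference of their log2 signals, since the levels of different probe sets are not comparable. *Rpl3l* (chr17:24727826-24736143), the striated-muscle paralog of *Rpl3*, had 13.89, 14.07, 14.10 and 14.46 in the scrmb legs and 14.11, 14.44, 14.20 and 14.55 in the MYTHO legs, a log2 difference of 0.19 (SE 0.19, limma adjusted p = 0.734). *Rpl3l* minus *Rpl3* moved towards *Rpl3l* in 4 of 4 animals, by 0.28, 0.77, 0.75 and 0.49. The mean change was 0.57 (0.35 without the MYTHO array of animal D, 0.83 without its scrmb array), with an exact two-sided permutation p of 0.171 over the arrays, without the pairing of legs, and 0.343 after Benjamini-Hochberg adjustment over the 4 paralog combinations. *Rpl10l*, which is mainly a testis gene, moved away from *Rpl10* in 4 of 4 animals, by a mean of -0.59 (exact permutation p = 0.0571, adjusted p = 0.229), with log2 differences of -0.10 for *Rpl10l* and 0.48 for *Rpl10*. The change was 0.08 for *Rps27l*, a p53-induced paralog, against *Rps27* (exact permutation p = 0.629, adjusted p = 0.743) and -0.14 for *Rpl39l* against *Rpl39* (exact permutation p = 0.743, adjusted p = 0.743). The probe set of *Rpl39l*, with a mean log2 signal of 4.95, lay below the median of every array and was not shown to be above background, so that last value is not informative about the mRNA. None of the 4 changes passed the adjusted threshold. An exact sign-flip permutation within animals, which keeps the legs paired and cannot go below p = 0.125 with 4 animals, gave p = 0.125 (adjusted p = 0.25) for both *Rpl3l* against *Rpl3* and *Rpl10l* against *Rpl10*, so this paired test cannot reach the threshold. The changes of *Rps27l* against *Rps27* and of *Rpl39l* against *Rpl39* differed in sign when single arrays were left out.

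The members with the brightest probe sets were *Rpl13a*, *Rpl4* and *Rps23*, with mean log2 signals of 17.24, 17.14 and 17.03, below the ceiling of 19.93 that 18 probe sets reached on all arrays. Their log2 differences were 0.11, -0.10 and 0.09. The dimmest were *Rpl39l*, *Rps4l* and *Rpl27*, at 4.95, 6.56 and 7.57, with differences of 0.10, -0.06 and 0.20. Brightness depends on the probes, so it does not rank these mRNAs by amount. The within-group SD had a median over the members of 0.183 in the scrmb legs and 0.232 in the MYTHO legs, beside 0.298 and 0.293 over all probe sets.

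Ribosomal protein genes that the symbol rule left out, such as *Fau*, *Rack1* and *Rpl36al*, were read in the same way. Of these 8 genes, 7 had a log2 difference above 0 and none reached an unadjusted p under 0.05, with a median of 0.16. With the animal as a block, *Rpl36al* did. *Rpl36al* had a log2 difference of 0.44 (limma adjusted p = 0.466), *Fau*, whose product is processed into a small-subunit protein, of 0.40 (limma adjusted p = 0.441) and *Rpl7l1* of 0.18 (limma adjusted p = 0.774).

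Other TOP mRNAs, mostly translation factors, had a median of 0.17 over 23 genes, with 16 above 0. Unadjusted p-values under 0.05 were reached by 5 that were higher (*Pabpc4*, *Eef1a2*, *Eif3f*, *Impdh2* and *Tpt1*) and by *Nap1l1*, which was lower. These shares were 21.7% and 4.35%, beside 4.81% and 7.58% of all probe sets, and none of the genes passed the adjusted threshold. With the animal as a block, 3 were higher, as *Eef1a2* and *Tpt1* no longer reached an unadjusted p under 0.05. *Pabpc4*, a poly(A)-binding protein, had 14.21, 14.17, 13.67 and 14.61 in the scrmb legs and 14.83, 14.92, 14.57 and 15.08 in the MYTHO legs, a log2 difference of 0.69 (limma adjusted p = 0.237), with the scrmb array of D above the MYTHO array of C. *Eef1a2*, the elongation factor of mature muscle, had a difference of 0.42 (limma adjusted p = 0.347), and *Nap1l1*, a histone chaperone, of -0.66 (limma adjusted p = 0.172).

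Genes that build the ribosome had a median near 0. Over 65 ribosome biogenesis factors it was -0.0025, with 2 higher (*Noc4l* and *Ddx56*) and 5 lower (*Fbl*, *Rpf2*, *Gar1*, *Rrp1* and *Lsg1*) at an unadjusted p under 0.05. These shares, 3.08% and 7.69%, were near or below the 4.81% and 7.58% of all probe sets, and none of the genes passed the adjusted threshold. With the animal as a block, 3 were lower, without *Rrp1* and *Lsg1*. *Fbl*, the methyltransferase of the small nucleolar particles, had 10.20, 10.43, 10.73 and 10.44 in the scrmb legs and 9.63, 9.24, 9.86 and 9.87 in the MYTHO legs. Its groups did not overlap, with a log2 difference of -0.80 (limma adjusted p = 0.147). *Rpf2*, which helps to place the 5S particle in the large subunit, had a difference of -0.65 (limma adjusted p = 0.266), and *Noc4l*, a factor of small-subunit assembly, of 1.05 (limma adjusted p = 0.234). Over 17 genes of RNA polymerase I and its control the median was 0.09. *Rrn3*, the factor that brings polymerase I to the ribosomal DNA, was the 1 gene with an unadjusted p under 0.05 (5.88%, near the 4.81% of all probe sets), at 0.55 (limma adjusted p = 0.272). *Ubtf*, which binds that DNA, had a difference of -0.34, *Cd3eap*, a polymerase I subunit, of -0.39 and *Myc* of 0.29 (limma adjusted p = 0.76), with the MYTHO array of B at 9.13 and the other 7 arrays between 7.62 and 8.04. Without that array the difference of *Myc* was -0.07.

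The mRNAs of the mTORC1 arm that leads to S6 and the TOP mRNAs had a median of 0.01 over 16 genes. *Rps6kb2*, S6 kinase 2, was the 1 gene with an unadjusted p under 0.05 (6.25%, near the 4.81% of all probe sets; none with the animal as a block), with 10.26, 10.37, 10.34 and 10.45 in the scrmb legs and 10.59, 10.83, 10.85 and 10.71 in the MYTHO legs. Its groups did not overlap, and the log2 difference was 0.39 (limma adjusted p = 0.356). *Rps6kb1*, S6 kinase 1, had a difference of 0.10 (limma adjusted p = 0.875), *Larp1* of -0.11 (limma adjusted p = 0.871), *Rheb*, the activator of mTORC1, of -0.28 (limma adjusted p = 0.541) and *Rps6ka2* of 0.43 (limma adjusted p = 0.544), which was 0.20 without the scrmb array of animal C. Of these, *Larp1* changed sign without the scrmb array of B, to 0.03, and *Rps6kb1* had 0.02 without the MYTHO array of D. The groups of *Rheb* did not overlap either, with every MYTHO array below every scrmb array and the MYTHO leg lower in 4 of 4 animals. Array signals measure mRNA, so they carry no information on kinase activity or on translation.

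Marker genes of fibre types and other cells were read on the same arrays. No marker passed the adjusted threshold, and the part of the slow-fibre and endothelial values below in the members' differences was not tested. All 8 slow-fibre genes were higher in the MYTHO legs, with a median log2 difference of 1.59. Of them, 7 (87.5%) had an unadjusted limma p under 0.05, beside 4.81% of all probe sets that were higher. With the animal as a block 8 did, beside 4.94%, and none passed after adjustment. Their mean signal ranged from 11.61 to 13.70 in scrmb arrays and from 11.68 to 14.88 in MYTHO arrays, and the within-animal medians were 1.09, 2.42, 2.84 and 0.14 in A to D, where those of the members were 0.37, 0.20, 0.04 and 0.23. All 4 endothelial markers were higher, with mean signals of 10.27 to 10.86 in scrmb and 11.05 to 11.28 in MYTHO arrays. Their within-animal medians were 0.24, 0.41, 0.73 and 0.50. *Tek* and *Pecam1* had an unadjusted p under 0.05 (50%, beside 4.81% of all probe sets). In 3 markers (75%, beside 2.59% of all probe sets) every MYTHO array was above every scrmb array. The 8 skeletal muscle genes, which include *Ckm* and *Acta1*, had mean signals of 19.14 to 19.31 on all arrays. Of them, 2 (*Acta1* and *Myh4*) lay at the ceiling on every array. *Tnnt3* and *Tnni2* lay just under it and were nearly flat, with scrmb means of 19.87 and 19.70 and MYTHO means of 19.85 and 19.67. The mean over this list therefore had little room to rise. *Mb*, the oxygen store of oxidative fibres, was higher by 0.55 (limma adjusted p = 0.326). Adipocyte and blood markers differed between the legs in opposite directions among animals, with within-animal medians of 3.04, -2.16, -1.35 and 0.36 for adipocyte and -1.27, 0.07, 0.52 and 1.83 for blood markers in A to D. Median log2 differences were 0.12 for macrophage, 0.07 for T and B cell, 0.23 for blood, -0.22 for fibroblast, -0.17 for adipocyte, -0.43 for Schwann, 0.08 for satellite cell and -0.01 for proliferation markers. Among these 8 lists, 1 gene of the fibroblast list (*Dcn*, 20%) and 1 of the T and B cell list (*Ptprc*, 12.5%) reached an unadjusted p under 0.05. Both were lower, where 7.58% of all probe sets were, and no gene of the other lists reached that p. With the animal as a block, *Cd68* of the macrophage list, which was higher, was among those that did as well.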

How the data were processed

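The authors deposited log2 signals of 8 Clariom S Mouse arrays, made with the Transcriptome Analysis Console 4.0.1 with its default parameters. Gene-level SST-RMA (background correction, quantile normalization and median polish) with annotation release 36 on mm10 is named in the file headers. The deposited log2 group averages, fold changes, p-values and false discovery rates were not used. MYTHO and scrmb were compared with limma 3.58.1 in R 4.3.3 (lmFit and eBayes, no block, two-sided), with Benjamini-Hochberg adjustment over all 22206 probe sets. Precision is limited by 4 arrays per group. The columns name the animals, and both legs of an animal pair by design. The deviations of its arrays from their group means correlated at 0.00266, -0.00145, 0.135 and 0.0871 over all probe sets in A to D. The members, gene lists and tests were chosen with earlier results of these data known. Members named are those with an adjusted p under 0.05, the 8 highest and 8 lowest differences among those with an unadjusted p under 0.05, the paralogs, the stalk genes and *Rps6*, the 3 brightest and 3 dimmest, and up to 3 genes with the smallest p in each other list, with *Rps6kb1*, *Larp1* and *Myc*. Other genes behind a small count were named after their values were seen. A result of 1 member is not reported here by name, and that member stays in the counts and medians. Alternatives were quantile normalization, median centring, the upper 75% by signal, trend and robust, no saturated probe sets, the animal block, rows naming 1 symbol, the lowest row per symbol, leaving out the paralogs *Rpl3l*, *Rpl10l*, *Rps27l* and *Rpl39l*, and leaving out each array. The *Rpl29* row on the gene's own chromosome and the upper 25% by signal as background were added after seeing the data. Start-site windows came from RefSeq (GRCm38.p6).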

Additional observations from a re-analysis of the deposited data

Results flagged for a closer look

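In 58 groups of 4 arrays, 3 had 1 array apart from the others by more than Dixon's 95% critical value for 4 samples, where chance alone gives about 1 in 20 groups. The scrmb array of animal C had a log2 signal of 11.60 for *Rplp0*, with the other scrmb arrays at 12.14 to 12.22 (gap over range 0.871). The scrmb array of animal D had 10.41 for *Rps27l*, with the others at 10.61 to 10.65 (0.833). The MYTHO array of animal C had 8.80 for *D230025D16Rik*, with the others at 8.08 to 8.20 (0.833).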

How the results depend on the processing

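The direction of the median over the members, of its 2 subunit medians and of *D230025D16Rik* was the same under all 18 alternatives. The median was 0.172 after quantile normalization, which moved the median of all probe sets to 0.0199, and 0.235 after median centring, which moved it to 0.035. With the animal as a replicate block, 0 members passed the adjusted threshold and 11 were higher at an unadjusted p under 0.05, the same 11 as without it, so the block, which follows the pairing of legs, changed no call of a member. In the other gene lists 5 genes lost and 4 gained an unadjusted p under 0.05, and none had an adjusted p under 0.05. With trend and robust, 15 members were higher at an unadjusted p under 0.05, beside 4.96% of all probe sets, and 1 was lower. At an adjusted p under 0.05, 2 members were higher under that setting. Leaving out each array in turn gave between 8 and 18 members higher and between 0 and 1 lower at an unadjusted p under 0.05, between 8 and 21 members higher and between 0 and 1 lower with no overlap, and a median of 0.114 to 0.27. Over all probe sets, the shares were 3.45% to 5.65% higher at that p and 3.58% to 5.64% higher with no overlap. The 18 and the 21 came without the scrmb array of animal D, the 17 and a further 21 without the MYTHO array of animal C. Without the MYTHO array of animal D the 1 lower member was *Rpl9*, both at that p and for overlap. Without the scrmb array of animal D it was *Rpl3*, for overlap only. Of 469 values of single members and paralog combinations under these alternatives, 456 kept their direction and their side of the threshold, 2 came to pass it and 11 changed sign, none of them called. *Rps23* changed to -0.0022 after quantile normalization and *Rps26* to -0.142 at its dimmest row. When an array was left out, *Rpl39l* minus *Rpl39* ranged from -0.361 to 0.119 (0.0458 without the MYTHO array of D), *Rps4l* from -0.141 to 0.0692, *Rpl39l* from -0.0267 to 0.237, *Rplp2* from -0.156 to 0.23 (-0.04 without the MYTHO array of B), *Rps27l* minus *Rps27* from -0.0217 to 0.174 (-0.0058 without the scrmb array of D) and *Rpl10l* from -0.223 to 0.0067. The log2 difference of further named genes moved by over 1.5 times without 1 array: *Rpl3l* ranged from 0.115 to 0.305, *Rps27* from 0.114 to 0.394, *Rpl39* from 0.0708 to 0.401, *Rpl13a* from 0.055 to 0.228, *Rpl4* from -0.152 to -0.0658, *Rpl27* from 0.133 to 0.282 and *Rpl7l1* from 0.0492 to 0.312. The cause was not tested. With 4 arrays per group, a difference within the replicate spread of these probe sets could not be detected.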
